A study of Mus musculus with 69 samples.

Results

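Mouse embryonic stem (ES) cells were set, before any change of Oct3/4, against 1 common RNA, a product labelled as universal mouse reference RNA, and the question here is which genes were high or low in the ES cells of both lines. The arrays are the 6 of 0 h cells among the 69 samples of the series, 3 of ZHBTc4 and 3 of ZHTc6 cells, and 3 further arrays of EB5 ES cells used the same reference. Both lines were derived from CGR8 ES cells and grown on gelatin without feeder cells in medium with LIF. ZHTc6 cells are *Pou5f1* +/- and carry a tetracycline-regulated *Pou5f1* transgene that Tet kept off at 0 h, so that the remaining allele supplied Oct3/4. ZHBTc4 cells, made from ZHTc6 cells by disrupting that allele, have no intact allele and were kept undifferentiated at 0 h by the transgene, with no Tet. All 6 samples thus hold a disrupted *Pou5f1* allele and a transgene, and each line is a single manipulated line. The sample labels read Tc+ for ZHBTc4 and Tc- for ZHTc6 cells also at 0 h, whereas the Tet state given here follows the paper. The samples were prepared independently, and the label on each array was Cy3 for the cells and Cy5 for the reference, with no dye swap. The reference is 1 pool of RNA whose makeup is not given in the sources used here, so that its own spread, and any bias between the dyes, cannot be told apart from a difference between the cells and the pool.

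ES cells come from the inner cell mass of the blastocyst and can form every tissue of the body. In the mouse, Oct3/4 acts there with Sox2 and Nanog, which bind many of the same regulatory regions. A ring of further factors (Esrrb, Klf2, Klf4, Tfcp2l1 and others), only some of which respond to LIF, also keeps the cells in self-renewal. The cells are also known for a short G1 phase, for high activity of the de novo DNA methyltransferases and of polycomb complexes, which hold lineage genes silent, and for an epithelial form with little of the matrix and contractile cytoskeleton of fibroblasts.

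The values are ratios of the cells over the reference on the log2 scale, so that 1 is 2-fold. A gene is called high or low where the ratio of both lines differed from 0 in the same direction in limma's moderated test, with Benjamini-Hochberg adjusted p under 0.05 in each line over 18135 features, which are 8973 named genes and 9162 oligos without a name. High therefore means a larger share of the RNA than in the pool. Low can hold for a gene that ES cells express well but of which the pool holds more. In the test the lines had a mean each but shared 1 estimate of the spread. An adjusted p of 1 line thus also depends on the arrays of the other, while an SD given beside it is that of the line alone. Of all features 3201 were high (17.7%) and 3050 low (16.8%) in both lines, and at 2-fold or more in each line 711 were high (3.92%) and 1102 low (6.08%). The rows at the limit of the ratio on more than 1 array, 471 in number and none with a gene name, were left out as probable control spots. With them 1182 features were 2-fold high and 1100 were 2-fold low. Among the named genes 1990 were high (22.2%) and 2176 low (24.3%), 500 of them 2-fold high (5.57%) and 811 of them 2-fold low (9.04%). The median over all features was 0.04 and over the named genes -0.00445. The lists hold named genes, so that their counts and medians are to be read against these shares. As markers of the cells, 17 of 19 measured pluripotency regulators and 17 of 18 ES cell markers were high, whereas of 22 regulators of early lineages 3 were high (6 without the third ZHBTc4 array, which stood apart), and *Pou5f1* itself was not analysed here. Across oligos that array correlated with the others of its line with r of 0.676 and 0.691 and with the ZHTc6 arrays with 0.753 to 0.804, while the other ZHBTc4 arrays correlated with each other with 0.887 and the ZHTc6 arrays with 0.923 to 0.942. Without that array 687 features were 2-fold high and 1087 were 2-fold low, and calls of named genes that change without it are given beside the genes.

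**Figure D1:**
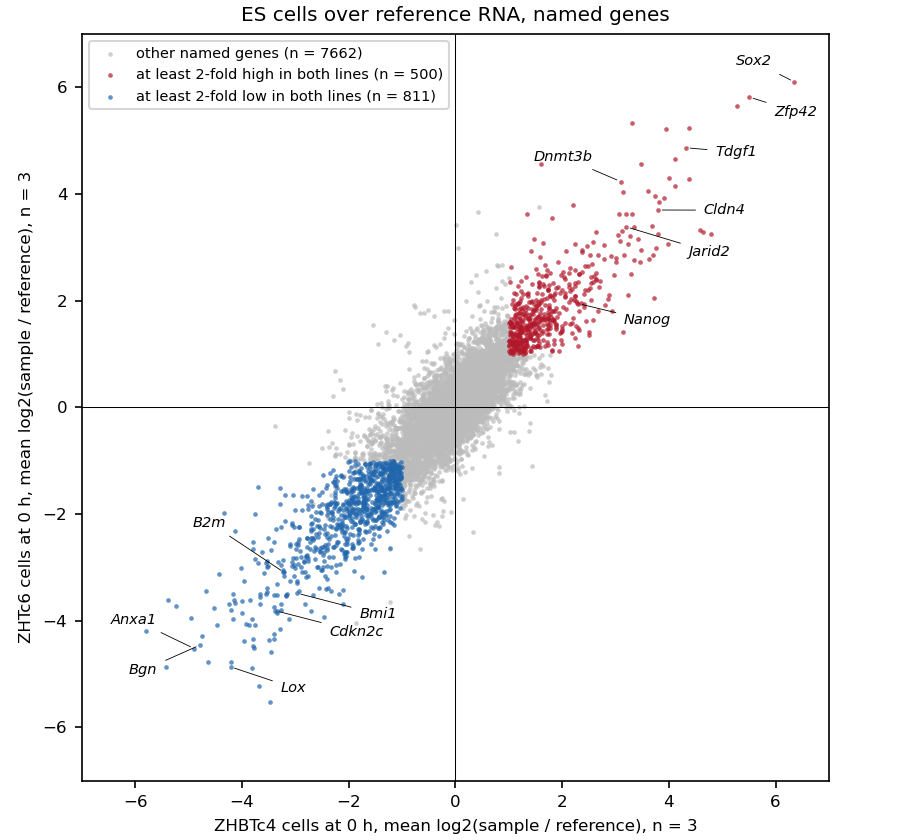
Each point is a named gene, with the mean log2 ratio of the 3 ZHBTc4 arrays over the reference on the x axis and that of the 3 ZHTc6 arrays on the y axis. Red points mark the 500 genes at least 2-fold high in both lines, which include *Sox2* and *Zfp42* at the upper end, and blue points the 811 genes at least 2-fold low in both, which include *Anxa1*, *Bgn* and *Lox*.

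Of the 20 genes highest over the reference 10 were on the lists of pluripotency regulators or ES cell markers, and *Sox2* and *Zfp42* led them. *Sox2*, the partner of Oct3/4 on DNA, stood at 6.33, 6.37 and 6.35 in the ZHBTc4 samples and at 6.12, 6.14 and 6.03 in the ZHTc6 samples, a mean of 6.22 or 74.8-fold over the reference (adjusted p = 1.7e-06 and 2.2e-06 in limma). All 6 values lie within 0.4 of each other and near the limit of 6.64 that the deposited ratios can reach. *Zfp42* (Rex1), a zinc finger gene long used as an ES cell marker, was 50.5-fold high, with 5.33, 5.56 and 5.62 in ZHBTc4 and 5.84, 5.97 and 5.63 in ZHTc6 samples. *Tdgf1* (Cripto), the co-receptor of Nodal, stood at 4.23, 4.42 and 4.32 and at 4.71, 5.05 and 4.83, and *Lefty1*, which restrains Nodal signalling, was 17.7-fold high, with values from 3.95 to 4.44. A co-receptor and an inhibitor of one pathway were thus both far above the pool in every sample. *Mycn*, a growth regulator of the Myc family, was 24.0-fold high (3.66, 3.84 and 4.35 in ZHBTc4, 5.04, 5.48 and 5.16 in ZHTc6 samples).

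The 20 highest include genes of other kinds. *Upp1*, which encodes uridine phosphorylase, was 21.0-fold high, and *Fbxo15*, a gene that is expressed in ES cells but is dispensable for them, had a mean of 4.32 (4.13 to 4.65). *Tcl1*, a coactivator of the kinase Akt, stood at 4.78, 4.78 and 4.37 in ZHBTc4 and at 3.27, 3.31 and 3.26 in ZHTc6 samples. *Tbx3* was 15.4-fold and *Dppa4* 14.2-fold high, with the lowest sample at 3.20 for *Tbx3* and at 3.50 for *Dppa4*. The X-linked genes *Mageb16* (28.0-fold), *Bex4* (17.5-fold) and *Bex1* (15.1-fold), the small heat shock protein gene *Hspb1* (14.3-fold), the amino acid transporter gene *Slc38a4* (14.2-fold), the carbonic anhydrase gene *Car2* (16.2-fold) and the tight junction gene *Cldn4* (13.4-fold) were in the same range. The promoters of *Bex4* and *Bex1* closely resemble each other, so that the source of each of these signals is uncertain. *Rps4l* (43.9-fold), a relative of a ribosomal protein gene, and *Zfp981* (4.32) belong to families of near-identical copies, so that the source of their signal is uncertain. *Zfp981* is also the gene among the 20 in which the ZHBTc4 arrays differed most, with 2.41 and 2.69 on the first and second and 4.83 on the third, and without the third its ZHBTc4 mean is 2.55 in place of 3.31. *D7Ertd143e* was 16.2-fold high and completes the 20.

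**Figure D2:**
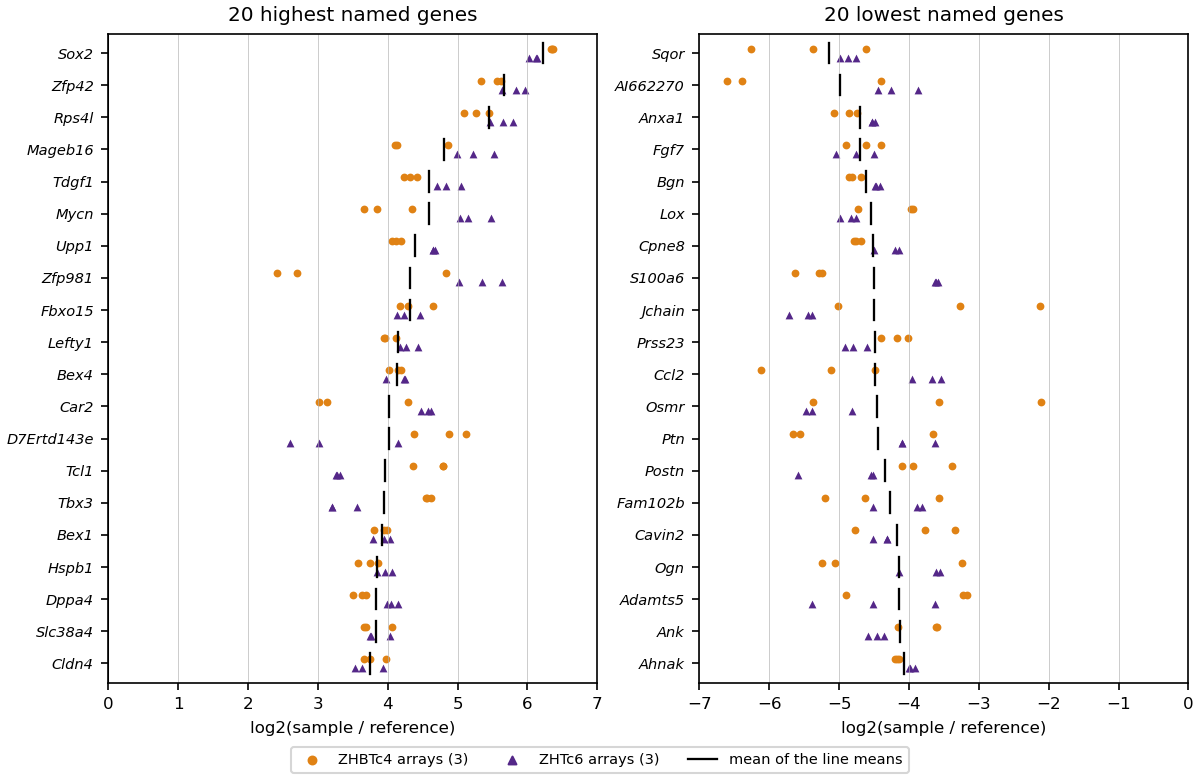
The 20 highest and 20 lowest named genes among those 2-fold high or low in both lines, with the log2 ratio of each array on the x axis (circles for the 3 ZHBTc4 arrays, triangles for the 3 ZHTc6 arrays) and a bar at the mean of the line means. All 6 arrays lie on the same side of 0 for each gene, from 2.41 (*Zfp981*) to 6.37 (*Sox2*) on the left and from -6.60 (*AI662270*) to -2.11 (*Osmr*) on the right.

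The promoters of a few of these genes show what they share and what they do not. RefSeq promoters (GRCm38.p6, from 250 bases before a start to 50 after it) were matched to 14 of the 20 highest genes, with 18 starts. Of the 20 lowest genes 16 were matched, with 23 starts. The octamer ATGCAAAT, the classic recognition sequence of Oct3/4 and other POU factors, was looked for on both strands, and so was CATTGT, a core of Sox binding sites, which can share bases with an octamer on the other strand. No octamer was found in the 23 promoters of the 16 matched genes among the 20 lowest. An octamer lies in the promoters of *Zfp42* (chr8:43306960-43307259, minus strand) and *Mageb16* (chrX:79671386-79671685, minus strand), where it begins 186 bases before the start in both. These promoters are shown 5′ to 3′ with the octamer in capitals. They stand beside that of *Sox2* (chr3:34649745-34650044, plus strand), the highest gene, and that of *Anxa1* (chr19:20390622-20390921, minus strand), one of the lowest, in which neither sequence was found.
Zfp42: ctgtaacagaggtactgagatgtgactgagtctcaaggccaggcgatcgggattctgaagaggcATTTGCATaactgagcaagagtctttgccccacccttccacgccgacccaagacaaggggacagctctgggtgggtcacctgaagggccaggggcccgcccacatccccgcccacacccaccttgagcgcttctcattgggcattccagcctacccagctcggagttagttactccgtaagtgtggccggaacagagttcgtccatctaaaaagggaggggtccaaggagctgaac
Mageb16: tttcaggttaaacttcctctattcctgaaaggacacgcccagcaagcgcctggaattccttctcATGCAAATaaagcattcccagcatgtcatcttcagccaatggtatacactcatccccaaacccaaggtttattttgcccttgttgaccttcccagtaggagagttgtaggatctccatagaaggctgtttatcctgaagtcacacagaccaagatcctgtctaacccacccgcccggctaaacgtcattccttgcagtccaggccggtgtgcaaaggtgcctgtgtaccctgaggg
Sox2: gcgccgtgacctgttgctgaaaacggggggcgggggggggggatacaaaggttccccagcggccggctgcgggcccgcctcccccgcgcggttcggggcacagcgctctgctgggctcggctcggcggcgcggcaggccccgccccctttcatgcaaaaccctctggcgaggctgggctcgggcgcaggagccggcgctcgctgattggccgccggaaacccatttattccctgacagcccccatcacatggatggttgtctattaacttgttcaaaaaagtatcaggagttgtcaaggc
Anxa1: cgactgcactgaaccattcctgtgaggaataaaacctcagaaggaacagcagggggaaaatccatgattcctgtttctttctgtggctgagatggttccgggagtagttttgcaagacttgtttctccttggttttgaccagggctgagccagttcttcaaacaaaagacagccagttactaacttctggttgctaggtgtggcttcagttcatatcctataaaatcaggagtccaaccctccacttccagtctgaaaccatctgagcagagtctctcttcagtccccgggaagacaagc
The octamer was found in 6 of 525 promoters of the genes 2-fold high (1.14%), in 12 of 856 of those 2-fold low (1.4%), in 114 of 9328 of all measured genes (1.22%) and in 570 of all 32851 promoters (1.74%). CATTGT was found in 7.81% of the promoters of the genes 2-fold high, 7.24% of those 2-fold low, 7.47% of the measured genes and 12.6% of all promoters. Both shares of the high genes thus lie near those of the measured genes in this window of 300 bases, and a match is a description, not a binding site. The *Sox2* promoter holds 27 CpG dinucleotides, that of *Zfp42* 11, that of *Mageb16* 6 and that of *Anxa1* 3. The median was 20 in the genes 2-fold high and 20 in those 2-fold low, against 21 in all measured genes, and it was 9.17 in the 20 highest and 7.5 in the 20 lowest.

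The pluripotency regulators were high nearly throughout. Of 26 listed genes 19 were measured, of which 17 were high, 16 of them 2-fold or more, and 1 was low, with a median of 2.12. Besides those given above, *Otx2*, a homeobox gene that ES cells use on leaving the naive state, stood at 3.53, 3.74 and 3.80 in ZHBTc4 and at 3.30, 3.49 and 3.38 in ZHTc6 samples. *Klf2* was 8.86-fold high (2.97 to 3.28), and its relatives *Klf4* (mean 1.89) and *Klf5* (mean 1.88) were lower than *Klf2* in ratio but past 2-fold in both lines. *Nanog*, the homeobox gene that guards self-renewal, was 4.35-fold high, with 2.38, 2.61 and 1.91 and with 1.90, 2.11 and 1.82. *Esrrb*, an orphan nuclear receptor of the same network, was 4.5-fold high (1.83 to 2.56). *Rif1* (2.32), *Utf1* (1.74), *Tfcp2l1* (1.72), *Mybl2* (1.49) and *Nr5a2* (1.35) followed. The 2 oligos of *Esrrb* read 1.27 and 3.07, and the 4 of *Tfcp2l1* ran from 0.40 to 3.39. *Sall4* was 5.73-fold high as the mean of 2 oligos that read 4.84 and 0.20, so that its size depends on the oligo. *Zfp57*, which protects imprints, was high by less than 2-fold (0.84), and *Zscan10* did not pass the test in ZHTc6 cells (0.45 ± 0.0877, SD, n = 3, adjusted p = 0.085), although it was high without the third ZHBTc4 array. *Stat3*, the transducer of the LIF signal and a gene of many tissues, was the single low member, at -0.41.

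Among the ES cell markers, 18 of 30 listed genes were measured, and 15 were 2-fold high (median 2.59). *Trh*, which encodes the precursor of thyrotropin-releasing hormone, was 11.4-fold high, with 3.93, 4.10 and 3.34 in ZHBTc4 and 3.13, 3.48 and 3.12 in ZHTc6 samples. *Dppa3* (Stella) stood at 1.61, 1.64 and 1.53 and at 4.46, 4.68 and 4.54, past 2-fold in every sample. *Rex2* was 6.69-fold, *Slc7a3* 5.44-fold and *Gdf3* 4.8-fold high. The promoter of *Rex2* lies on chromosome 4, as that of *Zfp981* does, and closely resembles it, so that the source of its signal is uncertain too. *Crxos* and *Fgf4* were high by less than 2-fold in at least 1 line, with *Fgf4* at 0.40. *Epcam*, an adhesion gene that epithelial cells share, did not pass in ZHBTc4 cells (-0.04 ± 0.173, SD, n = 3, adjusted p = 0.74).

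Regulators of signalling went both ways, with 5 of 17 measured genes high and 6 low. Apart from *Lefty1*, the receptor gene *Acvr2b* was 2.08-fold high, with oligos at 0.75 and 1.36. *Lefty2* stood at 0.40 and 0.74 on the first and second ZHBTc4 arrays and at 3.54 on the third, against 3.61 to 3.96 in ZHTc6 samples, and did not pass in ZHBTc4 cells (adjusted p = 0.078). Without the third array it is high in both lines, at 0.57 in ZHBTc4 cells (adjusted p = 0.017). On the LIF and BMP side *Socs3*, a target of Stat3, was high (0.76), while *Jak1*, the kinase of the LIF receptor, was 4.16-fold low (-2.46 to -1.67) and *Id2*, a BMP-responsive inhibitor of differentiation factors, was 7.32-fold low, with -3.75, -3.70 and -3.81 and with -2.09, -2.01 and -1.88.

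Of the de novo DNA methylation genes 2 stood far above the pool. *Dnmt3b* had values of 3.17, 3.15 and 2.97 in ZHBTc4 and of 4.25, 4.25 and 4.20 in ZHTc6 samples, and *Dnmt3l*, its cofactor without catalytic activity, stood at 3.04, 3.28 and 2.94 and at 3.11, 3.19 and 3.05. Those are 12.7-fold and 8.59-fold over the pool. The maintenance enzyme gene *Dnmt1* did not pass the test, with 0.10 ± 0.147 and -0.05 ± 0.0944 (SD, n = 3). The other de novo enzyme gene, *Dnmt3a*, was neither high nor low in both lines, with a ZHBTc4 mean of -0.32 (adjusted p = 0.031) and a ZHTc6 mean of 0.33 (adjusted p = 0.028), and its 3 oligos ran from -0.91 to 1.14. *Uhrf1*, the partner of Dnmt1, was high (0.72), and so were *Mbd3* (0.81) and the remodeller *Hells* (1.21). *Hells* is below 2-fold in ZHBTc4 cells without the third array (0.97). *Tet2*, which starts demethylation, was high (1.17) as the mean of 2 oligos that read 2.20 and 0.14. *Mbd2*, a reader of methylated DNA, was 3.33-fold low, with -1.68, -1.93 and -1.55 and with -1.75, -1.74 and -1.75. Of 11 measured genes of the list 6 were high and 1 was low, with a median of 0.72.

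**Figure D3:**
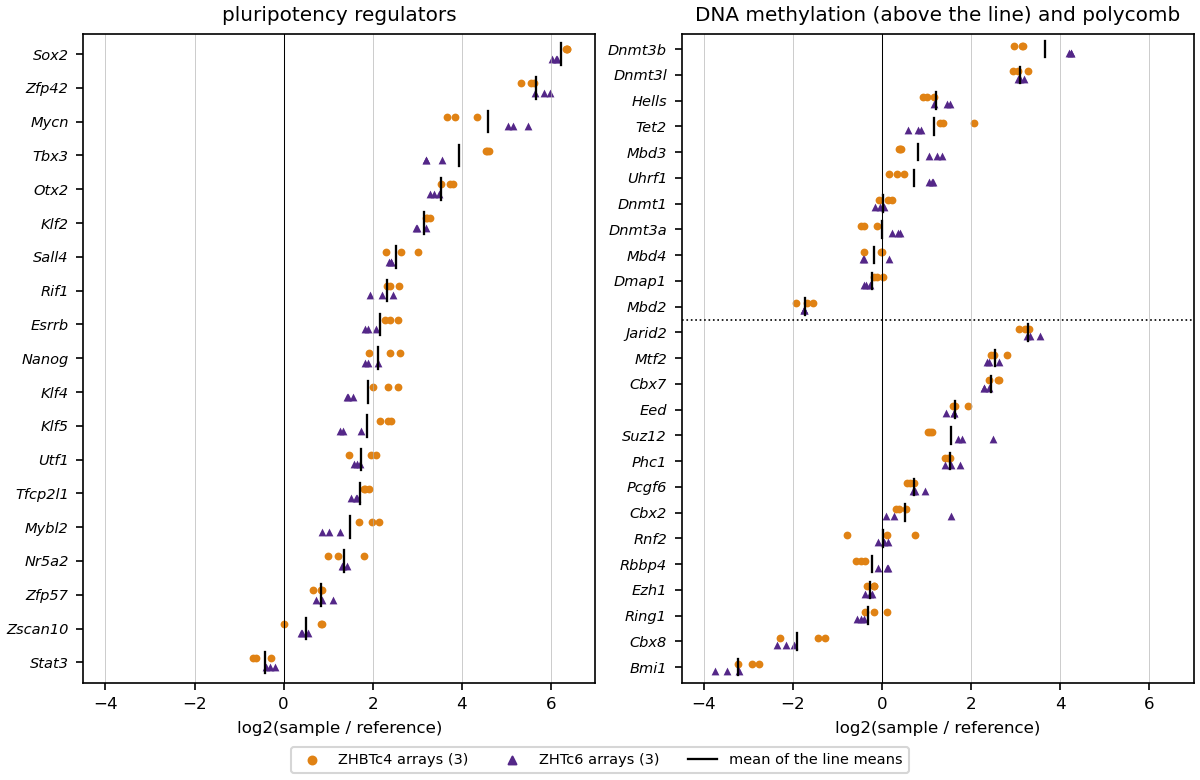
Log2 ratio over the reference (x axis) of each measured pluripotency regulator (left), DNA methylation gene (right, above the dotted line) and polycomb gene (right, below it), by array, with circles for ZHBTc4, triangles for ZHTc6 and a bar at the mean of the line means. *Sox2* and *Zfp42* lie above 5 on all 6 arrays, and *Jarid2* and *Bmi1* mark the ends of the polycomb genes at 3.29 and -3.23.

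Both polycomb complexes held genes above and genes below the pool. In PRC2, which methylates histone H3 at lysine 27, *Jarid2*, a factor that brings the complex to its sites, was 9.78-fold high, with 3.22, 3.08 and 3.29 in ZHBTc4 and 3.32, 3.27 and 3.56 in ZHTc6 samples. *Mtf2* (5.77-fold), the core subunits *Eed* (3.11-fold) and *Suz12* (2.91-fold) were high as well, whereas *Ezh1*, the alternative catalytic subunit, was low by 1.2-fold, a call that is lost without the third ZHBTc4 array (-0.17, adjusted p = 0.068). In PRC1, which ubiquitinates histone H2A, *Cbx7* was 5.42-fold and *Phc1* 2.88-fold high, the latter with oligos at 0.83 and 2.23. Other members of PRC1 were low. *Bmi1* stood at -2.77, -2.91 and -3.24 and at -3.48, -3.22 and -3.74, or 9.37-fold low, and *Cbx8* at -1.28, -1.43 and -2.29 and at -2.15, -2.36 and -1.98. *Cbx7* and *Cbx8* encode alternative chromodomain subunits of PRC1, and *Bmi1* one of several alternative Pcgf subunits, of which *Pcgf6* was high (0.72). *Rnf2*, the ubiquitin ligase of PRC1, stood at 0.02 ± 0.77 and 0.02 ± 0.114 (SD, n = 3) and did not pass. Of 14 measured genes 7 were high (6 of them 2-fold) and 3 low (2 of them 2-fold).

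Among 24 measured genes of chromatin remodelling and histone modification 12 were high and 2 low, 4 and 1 of them by 2-fold. *Kdm5b*, a demethylase of H3 lysine 4, was 4.35-fold high (1.87 to 2.32 over the 6 samples), *Trim28*, the corepressor of KRAB zinc finger proteins, 4.2-fold, *Smarcad1* 3.25-fold and *Hdac1* 3.16-fold. *Hmga2*, a chromatin protein of fetal mesenchyme, was 5.18-fold low (-2.56 to -2.19). *Setdb1* was also low (-0.61), but its oligos read -1.88 and 0.65. Germ line genes, several of which ES cells are known to transcribe, were high in 10 of 15 cases. *Sycp3*, a protein of the synaptonemal complex, was 5.29-fold high with 1.75, 1.72 and 3.47 in ZHBTc4 and 2.27, 2.56 and 2.64 in ZHTc6 samples, *Mael* 4.45-fold and *Ddx4* (Vasa) 3.11-fold. *Tdrkh*, which serves the piRNA pathway, was 2.59-fold low.

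Among the genes of cell division, those of DNA replication were high or did not pass. Of 39 replication genes 26 were high and 0 low at an adjusted p under 0.05 in both lines in limma, 9 of them 2-fold high, with a median of 0.53. *Mcm5*, a subunit of the replicative helicase, was 3.48-fold high (1.57 to 2.08), the single-strand binding protein gene *Rpa2* 3.35-fold, the clamp loader gene *Rfc5* 3.25-fold, *Mcm10* 3.18-fold and the licensing factor gene *Cdc6* 2.93-fold. Without the third ZHBTc4 array 26 were high and 1 low. Of 34 mitosis genes 13 were high and 5 low, and *Cdc25a*, the phosphatase that activates Cdk2, was the sole one past 2-fold (2.88-fold). *Nuf2* (-1.02), *Mki67* (-0.67) and *Aurkb* (-0.62) were low, and the 2 oligos of *Mki67* disagreed in direction.

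Cyclin D genes, their kinases, the inhibitors of these and the retinoblastoma family, which govern G1 in somatic cells, were low in 9 of 15 cases, with a median of -1.06. *Cdkn2c* (p18) stood at -3.72, -3.50 and -2.91 in ZHBTc4 and at -3.70, -4.45 and -3.28 in ZHTc6 samples, 12.1-fold low. *Cdk6* (-1.81, the mean of 4 oligos from -3.09 to -0.15) and *Cdkn2d* (-1.71) were 2-fold low as well. *Ccnd2* was 5.62-fold low as the mean of 4 oligos from -4.59 to -0.15. Against them *Ccne1*, the cyclin of the G1/S transition, was 4.15-fold high, with 1.38 to 1.64 in ZHBTc4 and 2.50 to 2.67 in ZHTc6 samples. *Ccnd3* (0.62) and *Cdk2* (0.27) were high by less than 2-fold, and *Cdk2* loses the call without the third ZHBTc4 array (0.21 in ZHBTc4 cells, adjusted p = 0.057). The inhibitor gene *Cdkn1c*, which is also imprinted, stood at 0.00, 0.07 and 2.21 in ZHBTc4 samples and did not pass there (adjusted p = 0.2), while it was 3.20 to 3.28 in ZHTc6 samples.

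The lists of general metabolism lay closer to the pool. The 52 cytosolic ribosome genes had a median of 0.11, with 16 high and 4 low, and the 61 respiratory chain genes a median of -0.08, with 14 high and 12 low. *Cox6b2*, a subunit known from testis, was 5.58-fold high, and *Cox5a* was 3.25-fold high. Of 14 glycolysis genes 6 were low and 1 high (2 without the third ZHBTc4 array): *Hk1* was 2.29-fold low (-1.38 to -1.06), and *Hk2*, the inducible hexokinase, was high (1.09). In the serine, glycine and one-carbon list 6 of 13 were high, led by *Mthfd1* (4.46-fold, 2.02 to 2.37), *Gldc* of the glycine cleavage system (4.05-fold) and *Shmt1* (2.86-fold). Chaperones were high in 10 of 20 cases, with *Hsp90aa1* 2.3-fold high, while *Hspa5* (BiP), the chaperone of the endoplasmic reticulum, was 2.6-fold low (-1.45 to -1.25). The oligos of *Hsp90aa1* read 0.42 and 1.98, and those of *Hspa5* ran from -1.90 to -0.38. Whether each passes 2-fold thus depends on the oligo.

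**Figure D4:**
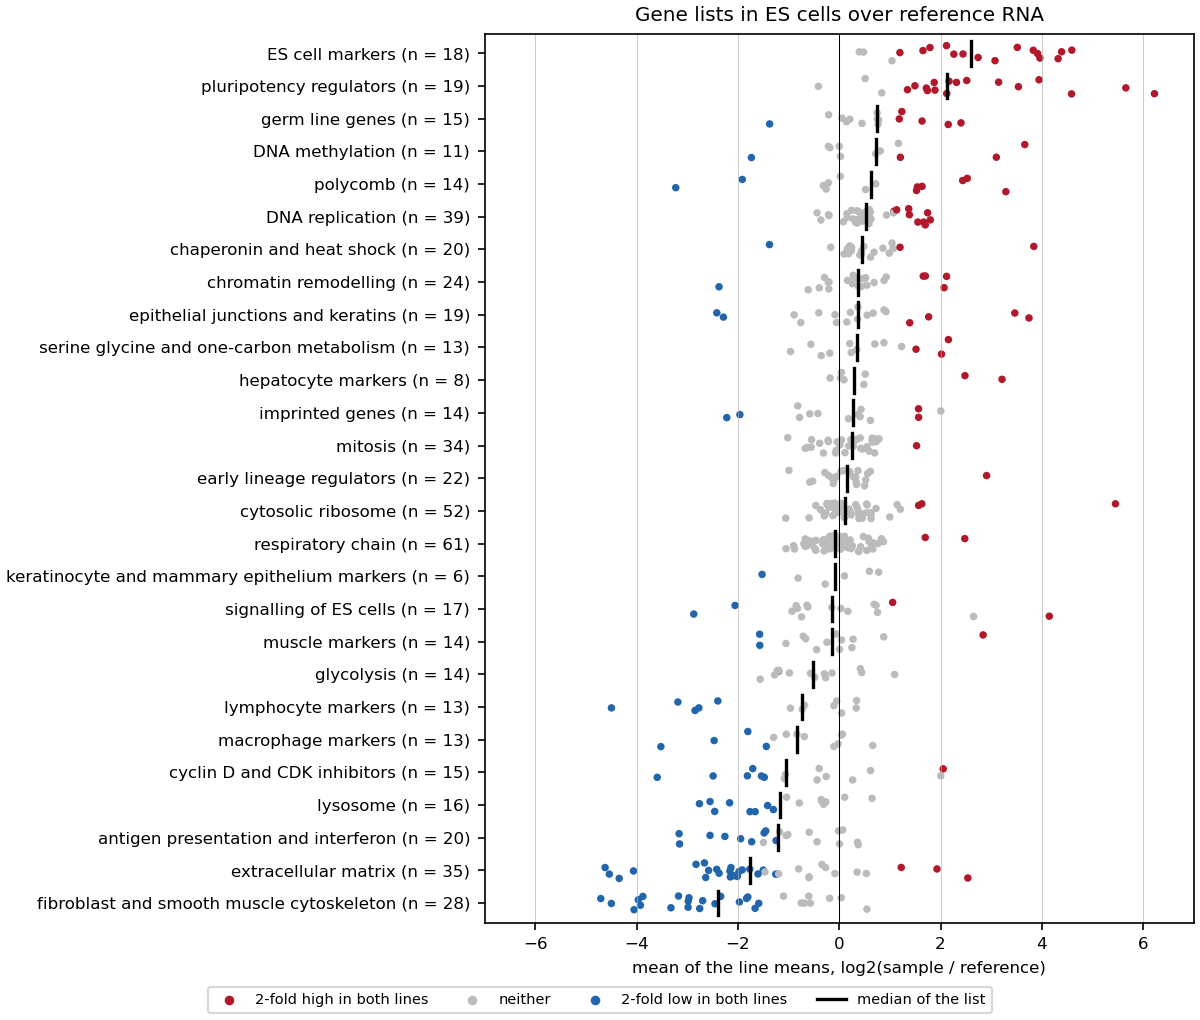
Members of each gene list as points at the mean of the line means (x axis, log2 ratio over the reference), red where at least 2-fold high in both lines, blue where at least 2-fold low in both and grey otherwise, with a bar at the median. ES cell markers (2.59) and pluripotency regulators (2.12) stand at the upper end, and extracellular matrix (-1.77) and the fibroblast and smooth muscle cytoskeleton (-2.40) at the lower end.

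Of the 20 genes furthest below the reference 5 were on the lists of extracellular matrix or of the fibroblast and smooth muscle cytoskeleton, and both lists as a whole had their medians far below the pool. Of 28 measured genes of the fibroblast and smooth muscle cytoskeleton 24 were low, 20 of them 2-fold, and 0 were high in both lines, with a median of -2.40. *Anxa1*, a membrane-binding annexin, stood at -4.74, -4.86 and -5.08 in ZHBTc4 and at -4.54, -4.49 and -4.54 in ZHTc6 samples, 26.1-fold below the pool. The annexin genes *Anxa2* (14.7-fold) and *Anxa3* (16.6-fold), *S100a6* (22.6-fold) and the caveolae genes *Cav1* (15.6-fold) and *Cav2* (15.2-fold) were low in the same way. Oligos of *Cav1* read -5.09 and -2.84. *Acta2*, smooth muscle actin, had a mean of -3.32 (-3.66 to -2.92), and *Vim*, the intermediate filament of mesenchyme, was 7.9-fold low, with 4 oligos from -4.66 to -1.04. *Twist1* did not pass in ZHBTc4 cells, with -1.22, -1.28 and 0.49, and stood at 1.64 to 1.98 in ZHTc6 samples. Without the third array its mean in ZHBTc4 cells is -1.25 (adjusted p = 0.00073), and it is still not called in both lines in 1 direction.

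Extracellular matrix genes were low in 26 of 35 cases, 21 of them by 2-fold. *Bgn* (biglycan), a small proteoglycan, stood at -4.86, -4.69 and -4.81 and at -4.42, -4.47 and -4.48, 24.6-fold low. *Lox*, which crosslinks collagen, was 23.2-fold, *Postn* (periostin) 20.3-fold and *Dcn* (decorin) 16.7-fold low, and the collagen chaperone gene *Serpinh1* and the membrane protease gene *Mmp14* were 6.33-fold and 7.1-fold low. The members that went the other way are known from basement membranes. *Nid2* was 5.81-fold high, with 2.78, 2.56 and 2.78 and with 2.26, 2.39 and 2.47, *Lama1*, the laminin chain of the early embryo, 3.81-fold, *Col18a1* 2.34-fold and *Lama5* 1.45-fold. Without the third ZHBTc4 array *Col18a1* is below 2-fold in ZHBTc4 cells (0.95) and *Lama5* loses its call (0.28, adjusted p = 0.096). The basement membrane collagen genes *Col4a1* (-1.25) and *Col4a2* (-0.80) were low. *Nid1* (-0.70) was low and *Lamc1* (0.24) high without the third ZHBTc4 array, and *Lamb1* was neither. Basement membrane genes thus lay on both sides of the pool.

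Others of the 20 lowest genes encode secreted factors and receptors of stroma: *Fgf7* (-4.70, with values from -5.05 to -4.40), *Ccl2* (22.3-fold low), *Ptn* (21.9-fold), the oncostatin M receptor gene *Osmr* (21.9-fold), *Ogn* (17.7-fold) and *Adamts5* (17.6-fold). *Sqor*, the mitochondrial sulfide quinone oxidoreductase, was the lowest named gene at 35.4-fold, with -6.26, -4.61 and -5.38 and with -4.75, -4.99 and -4.88. *Osmr* ranged in ZHBTc4 samples from -5.37 to -2.11 and *Jchain* from -5.02 to -2.13, and without the third array the ZHBTc4 means are -2.84 in place of -3.68 and -2.70 in place of -3.48. Those of *Ptn* and *Ogn* are -5.61 in place of -4.96 and -5.15 in place of -4.52 without it, and that of *AI662270* -6.50 in place of -5.79. The remaining genes were *AI662270*, *Cpne8*, *Prss23*, *Fam102b*, *Cavin2*, *Ank* and *Ahnak*, from 16.8-fold (*Ahnak*) to 31.8-fold (*AI662270*).

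Antigen presentation and interferon response were low in 13 of 20 measured genes, 9 of them by 2-fold. *B2m*, the light chain of all class I molecules, stood at -3.19, -3.24 and -3.20 and at -3.18, -3.13 and -2.97, 8.89-fold low. The immunoproteasome gene *Psmb8* (8.95-fold), the peptide transporter gene *Tap1* (5.86-fold) and the receptor gene *Ifngr1* (4.78-fold) were low too, and the class II gene *H2-Ab1* was high by a small ratio (0.38). Lysosomal genes were low in 11 of 16 cases, among them *Ctsz* (6.78-fold, -3.08 to -2.55), *Lamp2* (5.86-fold), *Ctsl* (5.5-fold) and *Psap* (4.48-fold), which supplies the activators of lipid breakdown. *Ctsc* was high (0.65), with 2 oligos that disagreed.

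Of 19 measured genes of epithelial junctions and keratins 8 were high, 4 were low and 7 were neither. *Cdh1* (E-cadherin), which holds ES cells together, was 11.1-fold high, with 3.27, 3.23 and 3.44 in ZHBTc4 and 3.68, 3.65 and 3.53 in ZHTc6 samples, and *Cldn3* (3.4-fold) and *Dsg2* (2.62-fold) were 2-fold high with *Cldn4*. The simple epithelial keratin genes *Krt19* (5.34-fold), *Krt18* (4.88-fold) and *Krt8* (1.85-fold, with oligos at -1.82 and 0.04) were low. *Krt8* and *Krt18* are markers of trophectoderm and of many epithelia. *Tfap2c*, listed with the early lineages and known from trophectoderm and germ cells, was 7.51-fold high (2.61 to 3.14). *Sox17* (0.50) and *Hoxb1* (0.28) were high by less than 2-fold, and *Gata6* (-0.99) and *Ascl2* (-0.58) were low. The 3 oligos of *Gata6* ran from -2.85 to -0.003. Among 14 imprinted genes 6 were high and 4 low (6 low without the third ZHBTc4 array): *Peg3* was 2.96-fold high, *Dlk1* 4.66-fold and *Grb10* 3.89-fold low. *Zdbf2* was also 2.96-fold high, with an exact 0 on the third ZHBTc4 array and 1.75 to 2.03 on the others, and its ZHBTc4 mean without that array is 1.77 in place of 1.18.

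Markers of differentiated cells that a pool could hold, or that could be present in the cultures, were read in the same way. Of 13 lymphocyte markers 7 were low and 0 high in limma (1 high without the third ZHBTc4 array), among the low ones *Jchain* (22.6-fold), *Cd53* (9.1-fold, -3.61 to -2.77), *Ptprc* (7.2-fold) and *Rac2* (6.83-fold), while *Cd3e*, a defining marker of T cells, did not pass. Of 13 macrophage markers 8 were low, led by *Lgals3* (11.5-fold, -3.61 to -3.46) and *Lcp1* (5.54-fold), and *C1qb* was high (0.66). Of 14 muscle markers 5 were low and 2 high, *Mylpf*, a myosin light chain, by 7.16-fold (2.50 to 3.33) and *Myod1* by less (0.88). Of 8 hepatocyte markers 2 were high. *Apoe*, an apolipoprotein made by many cells, was 9.29-fold high with 3.67, 3.59 and 3.19 and with 2.92, 3.03 and 2.89, and *Ttr* stood at 0.93, 0.62 and 2.48 and at 3.91, 3.24 and 3.71. *Alb*, which defines hepatocytes, did not pass (-0.15 ± 0.459 and 0.21 ± 0.161, SD, n = 3), and without the third ZHBTc4 array *Ttr* is below 2-fold in ZHBTc4 cells (0.78). Of 6 keratinocyte and mammary markers 2 were high and 1, *Lcn2*, was low (-1.52). A ratio near 0 does not tell whether a marker is absent from both RNAs or present in both, since no signal intensities were used, and fewer cells of a type cannot be told apart from less RNA per cell.

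The 3 EB5 arrays, 1 for each treatment with siGFP or with siTcl1 at 560 or 1120 uM as labelled, share the reference and serve only as values beside these. *Sox2* read 6.53, 6.38 and 6.24 there, *Bgn* -4.36, -4.56 and -4.20 and *Bmi1* -2.37, -1.76 and -1.59. *Cpne8* read -1.68, -1.71 and -1.71, against -4.79 to -4.15 in the 6 samples at 0 h. *Lefty1* read 3.91, 1.62 and 0.90. After 120 h of Tet in ZHBTc4 cells, which shuts off Oct3/4, the ratio over the same line's 0 h RNA was -5.82 ± 0.15 (SD, n = 3) for *Sox2*, -3.33 ± 0.168 for *Zfp42* and -0.84 ± 0.176 for *Sall4*. It was 4.65 ± 0.102 for *Anxa1* and 4.50 ± 0.123 for *S100a6*, but -0.05 ± 0.316 for *Vim* and 0.13 ± 0.0969 for *Cav1*, which stood 7.9-fold and 15.6-fold below the pool at 0 h. *Car2* and *Slc38a4*, both high over the pool, stood at 2.07 ± 0.123 and 2.25 ± 0.141. These values contain the 0 h RNA of the cells themselves and were not tested against the ratios over the reference.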

How the data were processed

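The authors deposited, per oligo, the log10 of the ratio of the Cy5 to the Cy3 signal, made with Agilent Feature Extraction according to the submitters' processing notes. Its background and dye settings and a genome build are not given in the sources used here. They were turned to log2 of the sample over the reference. Of 21446 rows 471 at the limit of the ratio on more than 1 array were removed, all without annotation. Of 20975 kept, 11813 have 1 gene in the platform annotation, 559 several and 8603 none, and oligos of 1 gene were averaged. The numbers of the oligos in the tables of the paper did not match these rows, so that names come from the annotation alone.

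Each line's mean was tested against 0 with limma 3.58.1 in R 4.3.3 (with statmod 1.5.0), with Benjamini-Hochberg adjustment over 18135 features. Both lines were fitted in a single model with a shared estimate of the spread. The test was checked on simulated data with independent errors, which held no shared reference, dye bias or outlying array. Arrays carry no counts, so that their number limits the precision, and no intensity filter could be set. The medians of the 6 arrays lie between 0 and 0.04, and 1.79% to 3.8% of their values are exactly 0.

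Named are the 20 highest and 20 lowest genes on one side of 0 on all 6 arrays, members of each list by size or against its majority, and genes the paper names. Beyond that rule *Acta2*, *Vim*, *Alb*, *Dppa3*, *Gdf3*, *Rex2*, *Slc7a3*, *Crxos*, *Epcam*, *Col4a1*, *Col4a2*, *Nid1*, *Lamb1*, *Lamc1*, *Sox17* and *Hoxb1* were chosen after their values were seen. The members and the lists were chosen with earlier results of these data known. A listed symbol was matched to an older name only where it is no current symbol in RefSeq (GRCm38.p6). For the 120 h arrays, names came from the annotation or, where it gives none, from the tables of the paper. Alternatives were other scalings, filters, tests, fold limits, oligos and each array left out.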

Additional observations from a re-analysis of the deposited data

How the results depend on the processing

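The 20 highest and 20 lowest genes kept their calls in all 20 alternatives. They were picked for extreme ratios on one side of 0 on all 6 arrays, so that an alternative could hardly change a call. The counts of features 2-fold high (711) and low (1102) were 1182 and 1100 with no row left out for its bounds, 1633 and 1957 at a fold limit of 1.5, and 153 and 326 at a limit of 4. With the 6 arrays as one group 5195 features were high and 4487 low. With each line fitted alone, 2300 were high and 2417 low, and 682 and 1037 at 2-fold. All of the rows added by keeping the bounds lack an annotation. Leaving out 1 array at a time, high features numbered 2423 to 3722, low features 2385 to 3366, 2-fold high features 687 to 726 and 2-fold low features 1051 to 1105. With the annotated genes alone, an alternative chosen after seeing the data, 501 were 2-fold high and 824 were 2-fold low. With the first oligo of a gene in place of the mean, *Mki67* stood at 0.16 and *Ctsc* at -0.035, on the other side of 0.

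The replicate numbers of the labels name samples of different lines. Correlations of deviations were 0.147, -0.114 and 0.121 for the same numbers and from -0.218 to 0.174 for different numbers. The same numbers thus did not stand out, though deviations from a mean of 3 arrays constrain each other and cannot settle a pairing. A replicate block gave 711 and 1102 at 2-fold, and 3202 high and 3049 low features. Rows of a number that is no known oligo could not be told apart on these arrays, so that this alternative was not run, and names from the annotation alone are the setting used throughout. The lack of a dye swap and of a replicate of the reference limits every value, and no alternative bears on it.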

Other observations

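The shares of genes high and low differed between chromosomes. Of 8956 named genes with a chromosome in RefSeq 5.58% were 2-fold high and 9.04% 2-fold low in both lines. On chromosome 15 it was 7 of 369 genes high (1.9%) and 54 low (14.6%), with a median log2 ratio of -0.23, the lowest of the autosomes. On chromosome 7 it was 52 of 653 genes high (7.96%) and 34 low (5.21%), with a median of 0.13, the highest of the autosomes. On chromosome 4 40 of 557 were high (7.18%) and 27 low (4.85%), and on chromosome 11 39 of 722 were high (5.4%) and 41 low (5.68%), with a median of 0.08. On the X chromosome, which carries *Mageb16*, *Bex1* and *Bex4*, 22 of 313 were high (7.03%) and 33 low (10.5%). These were noticed in the data and not tested, since genes of a chromosome are not replicates, and the karyotypes of the cells and of the cells behind the reference were not analysed here.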
